A study of Mus musculus with 54 samples.

Results

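Nanos1, Zfp36, Zfp36l1, Zfp36l2, Zc3h12a, Btg1, Btg2, Tob1 and Tob2 encode proteins that bind messenger RNA, or the enzymes that shorten it, and speed its decay. These 9 genes, of 16632 in the count table, are described here across primary mouse microglia that had or had not been given alpha-synuclein (aSyn). The set was built around Nanos1, which was chosen by its measured level: it was much lower in aSyn-treated than in untreated cells. The other 8 genes were added as relatives by function. Untreated against aSyn-only cells is therefore given as a description for all 9 genes. The main tests compare other libraries, those of donors and acceptors. Their fit took the spread and any experiment terms from all 14 groups, and donors were given the same aSyn treatment in the same numbered experiments. These tests are thus no independent check of the choice. Where untreated or aSyn-only libraries enter a later comparison, Nanos1 was left untested and the values of the other 8 genes share those libraries with the choice. All 9 genes had enough reads to be tested, among 13169 genes tested in all.

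Messenger RNA decay usually starts with shortening of the poly(A) tail by the CCR4-NOT complex, followed by removal of the cap or digestion from the 3′ end. Proteins of the tristetraprolin (TTP) family bind AU-rich elements in the 3′ untranslated region (3′UTR) and recruit CCR4-NOT, the endonuclease Regnase-1 cuts stem-loops in the 3′UTRs of inflammatory transcripts, Nanos proteins act with Pumilio on 3′UTR sites, and BTG/TOB proteins bind the CAF1 deadenylase subunits. In macrophages and microglia, TTP and Regnase-1 are best known for limiting the messages of cytokines and chemokines after an inflammatory stimulus.

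The microglia came from neonatal C57BL/6 mouse brains, were grown for 7 to 10 days in serum with medium conditioned by L929 cells, 2 brains to a flask, and were shaken off an astrocyte layer. There were 14 groups: untreated cells (6 libraries), cells given 1 µM Atto-488-labelled aSyn for 14 h (aSyn-only, 4 libraries), and aSyn-loaded donor cells and Violet-stained acceptor cells, which had not been given aSyn, co-cultured for 0, 15, 30, 60, 150 or 300 min and sorted apart (3 or 4 libraries in each). Only acceptors were stained, so the stain cannot be told apart from being an acceptor. Whether acceptors took up aSyn in co-culture was not tested. The labels name no mutant allele in any group, and they do not say whether untreated and aSyn-only cells were sorted or what was done at 0 min. Replicates carry an experiment number from 1 to 4, and experiments 1 to 4 used cells of passage 3, 1, 2 and 2, so passage cannot be told apart from experiment. Untreated libraries of the same number were summed, which left 4 untreated replicates and 52 in all, and the labels do not say whether experiments used separate animals, so the spread may in part be technical.

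RNA was read as 50-base QuantSeq 3′ tags, one per transcript end, with 7807389 to 15537493 counted reads per library (median 13036175.5). Levels are given as counts scaled to the TMM-adjusted library total (CPM), with SD over experiments. Experiment 4 was a separate library batch by its facility numbers. It had 13.4 to 22.3% of reads on the ribosomal gene Rn45s, against 1.42 to 13.5% in experiments 1 to 3. All 12 microglia markers had reads in all 52 replicates, but P2ry12 (1.48 to 12.3 CPM), Tmem119 (0.925 to 13.1 CPM) and Sall1 (1.15 to 9.20 CPM) were low. The summed level of these markers was 2573 to 2942 CPM in the 6 aSyn-loaded libraries of experiment 4, 5246 to 5996 CPM in the others of that experiment, and 6788 to 10778 CPM in experiments 1 to 3. Results are therefore given without experiment 4 as well where it changes a call.

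Short stretches of the 3′UTRs show which of these genes themselves carry the elements that such proteins read. The AU-rich heptamer TATTTAT, searched on the sense strand of the GENCODE M21 3′UTRs (GRCm38), occurred 3 times each in Zfp36, Zfp36l1 and Zfp36l2, once each in Nanos1, Btg2 and Tob2, and not in Zc3h12a, Btg1 or Tob1. The first match of each TTP-family gene is printed with 11 bases on either side and the heptamer in capitals.
Zfp36, chr7:28376966-28376994, minus strand: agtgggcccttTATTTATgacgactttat
Zfp36l1, chr12:80108422-80108450, minus strand: ttatcaaaacgTATTTATtgccaaactat
Zfp36l2, chr17:84184914-84184942, minus strand: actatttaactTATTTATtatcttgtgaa
The heptamer occurred in 30.41% of the 12287 tested genes with a 3′UTR. Among genes whose 3′UTR was of similar length, 3 or more were found in 0.8286% for Zfp36, 3.35% for Zfp36l1 and 3.32% for Zfp36l2.

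The Pumilio site TGTANATA was searched in the same way and occurred once in Nanos1, which is not particular to it. The Nanos1 site is printed because Nanos proteins act at such sites together with Pumilio.
Nanos1, chr19:60757710-60757739, plus strand: taatcatatcgTGTACATAtttggaaacgg
The capitals mark the Pumilio match, which occurred in 26.67% of the tested genes. Among genes with 3′UTRs of similar length to that of Nanos1, 44.96% held one. These are matches of letters, and binding was not measured.

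Nanos1, a zinc-finger partner of Pumilio best known from germ cells and neurons, lies on chr19:60755987-60759914 (plus strand) as a single exon. Its read count per replicate ran from 19 to 2874, and its CPM spanned 120-fold, more than for any of the other 8 genes (3.89- to 7.02-fold). In untreated cells it stood at 178.6, 39.2, 85.8 and 108.3 CPM in experiments 1 to 4. In aSyn-only cells it stood at 24.8, 12.1, 11.8 and 4.10 CPM. Every aSyn-only value was below every untreated value. This is the contrast on which the gene was selected; the aSyn-only level was 0.139, 0.310, 0.137 and 0.0379 of the untreated level in the same experiment.

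**Figure D1:**
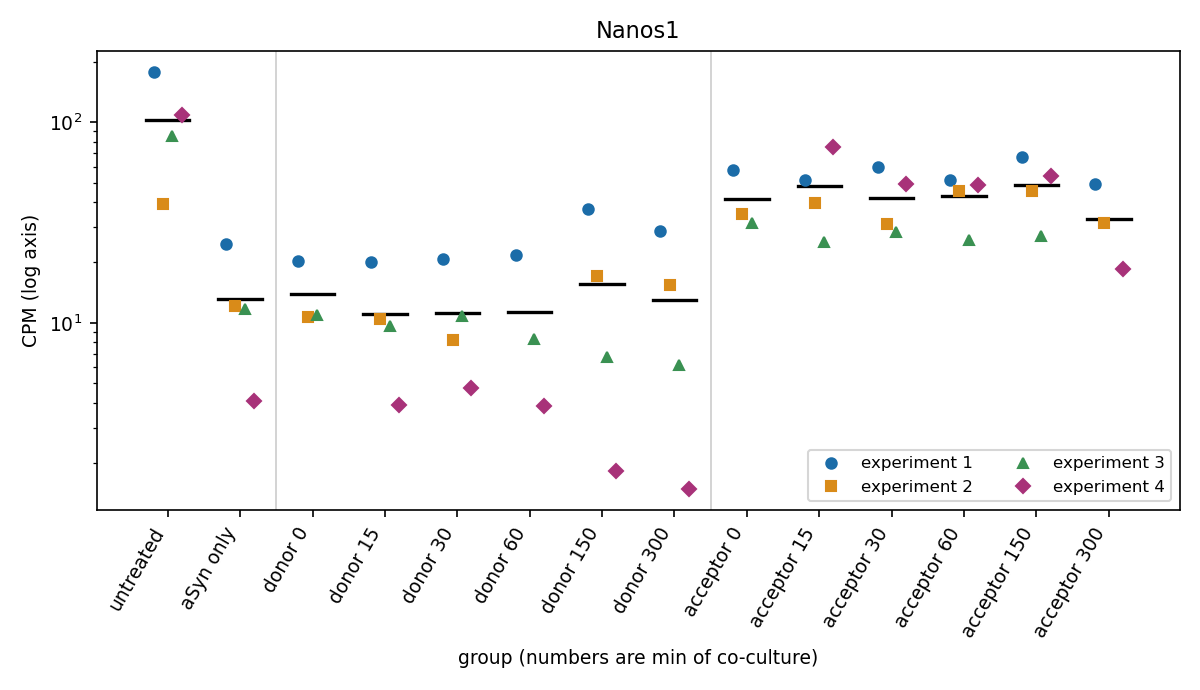
Nanos1 level (CPM, log axis) in each of the 14 groups. Each point is 1 replicate coloured by experiment, and bars mark group means; untreated cells lie highest (39.2 to 178.6 CPM), acceptors between, and aSyn-only and donor cells lowest, with experiment 4 lowest in each donor group that includes it.

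In the co-culture libraries, outside the contrast used for the choice, Nanos1 stood lower in donors than in acceptors. Acceptors had group means of 33.1 to 48.5 CPM (SD 11.5 to 21.2) and donors of 11.04 to 15.64 CPM (SD 5.40 to 15.5). At 15 min the donors read 20.1, 10.5, 9.65 and 3.89 CPM in experiments 1 to 4. The acceptors read 51.4, 39.3, 25.3 and 75.3 CPM. Donor levels at the other early times were alike, at 20.2, 10.7 and 10.99 CPM at 0 min (experiments 1 to 3), 20.9, 8.20, 10.9 and 4.73 CPM at 30 min, and 21.7, 8.27 and 3.84 CPM at 60 min (experiments 1, 3 and 4). At 150 min the donors of experiment 1 stood higher and those of experiment 4 lower, at 36.8, 17.2, 6.73 and 1.82 CPM. At 300 min the donors read 28.8, 15.4, 6.14 and 1.49 CPM, and the acceptors 49.4, 31.3 and 18.5 CPM in experiments 1, 2 and 4. Donor and acceptor values did not overlap at 0, 15, 30 and 60 min and overlapped at 150 and 300 min. In order, the untreated mean (103 ± 58.0 CPM, n = 4) was highest, the 6 acceptor means came next, and the 6 donor means and the aSyn-only mean (13.2 ± 8.55 CPM, n = 4) were lowest. Neighbouring means within each of these sets differed by less than their SDs, and the untreated range reached into that of the acceptors.

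Nanos1 was lower in donors than in acceptors in 21 of 21 same-numbered pairs. The mean log2 difference was -1.21, -1.58, -1.57 and -3.89 in experiments 1 to 4 (mean -2.06, SD 1.23, n = 4 experiments). In the planned test, edgeR's quasi-likelihood test over all 14 groups with Benjamini-Hochberg (BH) adjustment over all genes, the log2 difference ran from -2.12 at 15 min (adjusted p = 0.139) to -1.35 at 300 min (adjusted p = 0.814), and no time was called at 0.05. Same-numbered libraries deviated together, and with experiment as a block Nanos1 fell in donors at 15 min by 2.32 on the log2 scale (SE 0.484, adjusted p = 0.00139), at 30 min by 2.02 (SE 0.478, 0.00467), at 60 min by 2.20 (0.00982) and at 150 min by 1.91 (0.0115). The blocked adjusted p was 0.0848 at 0 min and 0.153 at 300 min. The block fits a shift shared by all libraries of an experiment, and not a donor-acceptor difference that varies between experiments. At 15 min that difference was -1.35, -1.89, -1.38 and -4.22 in experiments 1 to 4 (SD 1.37), so the blocked SE may be too small. At 15 and 30 min the blocked call held without any 1 experiment. At 60 min it was lost without experiment 1 (adjusted p = 0.0580) or 3 (0.0683), and at 150 min without experiment 2 (0.0587) or 3 (0.0814). Without experiment 4 the blocked difference was smaller at 15 to 150 min, between -1.65 and -1.31 on the log2 scale, and was called at these 4 times and at 0 min (-1.57, adjusted p = 0.000319), where that experiment has no library.

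**Figure D2:**
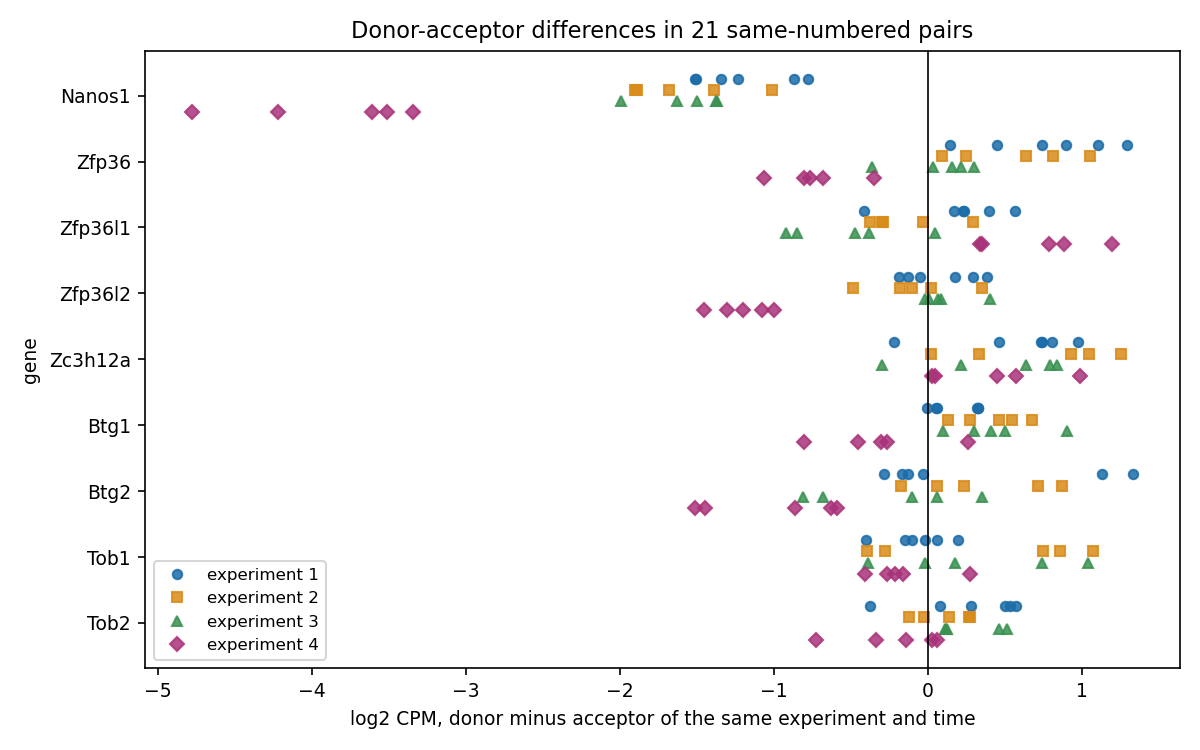
Log2 CPM in donors minus acceptors for each of the 9 genes; each point is 1 of 21 same-numbered pairs, coloured by experiment, and 0 means equal levels. All Nanos1 points lie below 0, 19 of 21 Zc3h12a points lie above it, and experiment 4 sits apart for Nanos1.

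These shares of all genes called set the scale for the counts of called members. Without the block, 0.251, 0.888, 0.805, 0.418, 0.167 and 0.0304% of the 13169 genes were called between donors and acceptors at 0, 15, 30, 60, 150 and 300 min. None of the 54 tests of the 9 genes was called, 8 had an unadjusted p under 0.05, and DESeq2 called 1 (Nanos1 at 15 min, adjusted p = 0.0424), where it called 1.75% of all genes. With the block, 4.28, 9.57, 10.8, 6.7, 5.19 and 1.38% of all genes were called, and 8 of the 54 tests: Nanos1 and Zc3h12a at 4 times each. Without experiment 4, the shares were 1.84, 1.16, 1.37, 0.612, 0.222 and 0.0306% with no block and 3 of 54 tests were called, and with the block they were 11.1, 6.66, 8.58, 4.5, 3.26 and 1.17% and 13 of 54 were called. The calls came from 2 of the 9 genes with the block and from 4 with the block and without experiment 4.

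The acceptors' Nanos1 level lay below the untreated mean at every time, and since the untreated libraries were part of the choice this was not tested. Acceptors read 57.9, 34.8 and 31.4 CPM at 0 min in experiments 1 to 3, and 67.3, 45.3, 27.2 and 54.1 CPM at 150 min in experiments 1 to 4. In experiment 2 the untreated level, 39.2 CPM, lay inside the range of that experiment's acceptors (31.1 to 45.5 CPM). Astrocyte transcripts also differed between these cells: 10 astrocyte markers summed to 12.4, 21.1, 102.6 and 180.8 CPM in untreated cells and to 15.8, 11.9, 20.4 and 44.1 CPM in aSyn-only cells, in experiments 1 to 4. In experiments 1 to 4 the same untreated cells read 178.6, 39.2, 85.8 and 108.3 CPM for Nanos1. The replicate with the most Nanos1, in experiment 1, had the lowest of these 4 untreated sums (12.4 CPM). Over experiments 2, 3 and 4 the sum and Nanos1 rose together. The acceptor sums were 9.30 to 15.7, 12.1 to 16.2, 44.3 to 56.3 and 30.6 to 49.0 CPM in experiments 1 to 4. With the block, 6 of the 10 astrocyte markers, 4 of 8 oligodendrocyte-lineage markers (Pdgfra, Olig1, Olig2, Sox10) and the neuronal Map2 were lower in aSyn-only than in untreated cells, and the endothelial Pecam1 was higher (without the block too, adjusted p = 0.0389). Aqp4 had no read in 27 of the 52 replicates and Gfap none in 18. Between donors and acceptors, Gja1 at 15 min was the astrocyte marker called with the block (-4.02 on the log2 scale, adjusted p = 0.0460). Gja1 lay near the floor, with no read in 17 of the 52 replicates, a median of 0.223 CPM and at most 3.66 CPM. The part of these cells in the Nanos1 level was not tested, and in bulk libraries fewer cells of a type cannot be told apart from less RNA per cell.

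The genes whose levels followed Nanos1 most closely were Rtn4, Rasgrp3, Nptn, Ctnna1 and Hprt. Their Pearson r with Nanos1, on log2 CPM adjusted for experiment over 52 replicates, was 0.940, 0.935, 0.932, 0.929 and 0.926; these replicates share libraries, and no test was made. Rtn4, which encodes the membrane-shaping reticulon Nogo, averaged 1203 CPM in untreated, 723 in aSyn-only, 661 in donor and 981 in acceptor cells at 15 min. Rasgrp3, a Ras guanine nucleotide exchange factor, averaged 192, 46.4, 42.9 and 169 CPM in the same groups. Both therefore stood in the same order of groups as Nanos1.

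Zfp36 was highest early in co-culture, most clearly in donors of experiments 1 and 2, and its untreated and aSyn-only levels overlapped. It encodes TTP itself and lies on chr7:28376784-28380253 (minus strand). Its levels in untreated cells were 109.6, 180.4, 124.8 and 59.5 CPM, and in aSyn-only cells 136.4, 115.3, 137.5 and 84.4 CPM, so the ranges overlapped. Donors read 193.4, 143.1 and 165.5 CPM at 0 min (experiments 1 to 3), and 353.7, 223.4, 177.1 and 132.7 CPM at 15 min (experiments 1 to 4). At 300 min they read 97.3, 129.8, 75.2 and 50.4 CPM. The donors' 15 min level was 1.83, 1.56 and 1.07 times the 0 min level in experiments 1, 2 and 3, and the 300 min level was 0.503, 0.907 and 0.454 times. Acceptor means ran from 99.3 to 150.5 CPM, with the lowest at 300 min.

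The test over the 6 donor times gave an unadjusted p of 0.00454 for Zfp36 and 0.00770 for Btg2, and an adjusted p of 1.00 for both; with the block the adjusted p was 0.182 and 0.127. Without experiment 4 and with the block, Zfp36 (adjusted p = 0.0179), Btg2 (0.00254) and Zc3h12a (0.000963) changed with time in donors. Of all genes, 0.0607% were called in this test, 0.577% with the block and 1.58% with the block and without experiment 4. In acceptors none of the 9 genes was called (0.00759% of all genes, or 0.137% with the block); none had an unadjusted p under 0.05 without the block and 3 had with it, Zc3h12a with the lowest adjusted p (0.197). The interaction of time and cell class called none of the 9 (0% of all genes, 0.0456% with the block), with unadjusted p under 0.05 in 0 tests and, with the block, in 1, Zc3h12a (adjusted p = 0.298). A time course in donors is thus not shown to differ from that in acceptors.

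**Figure D3:**
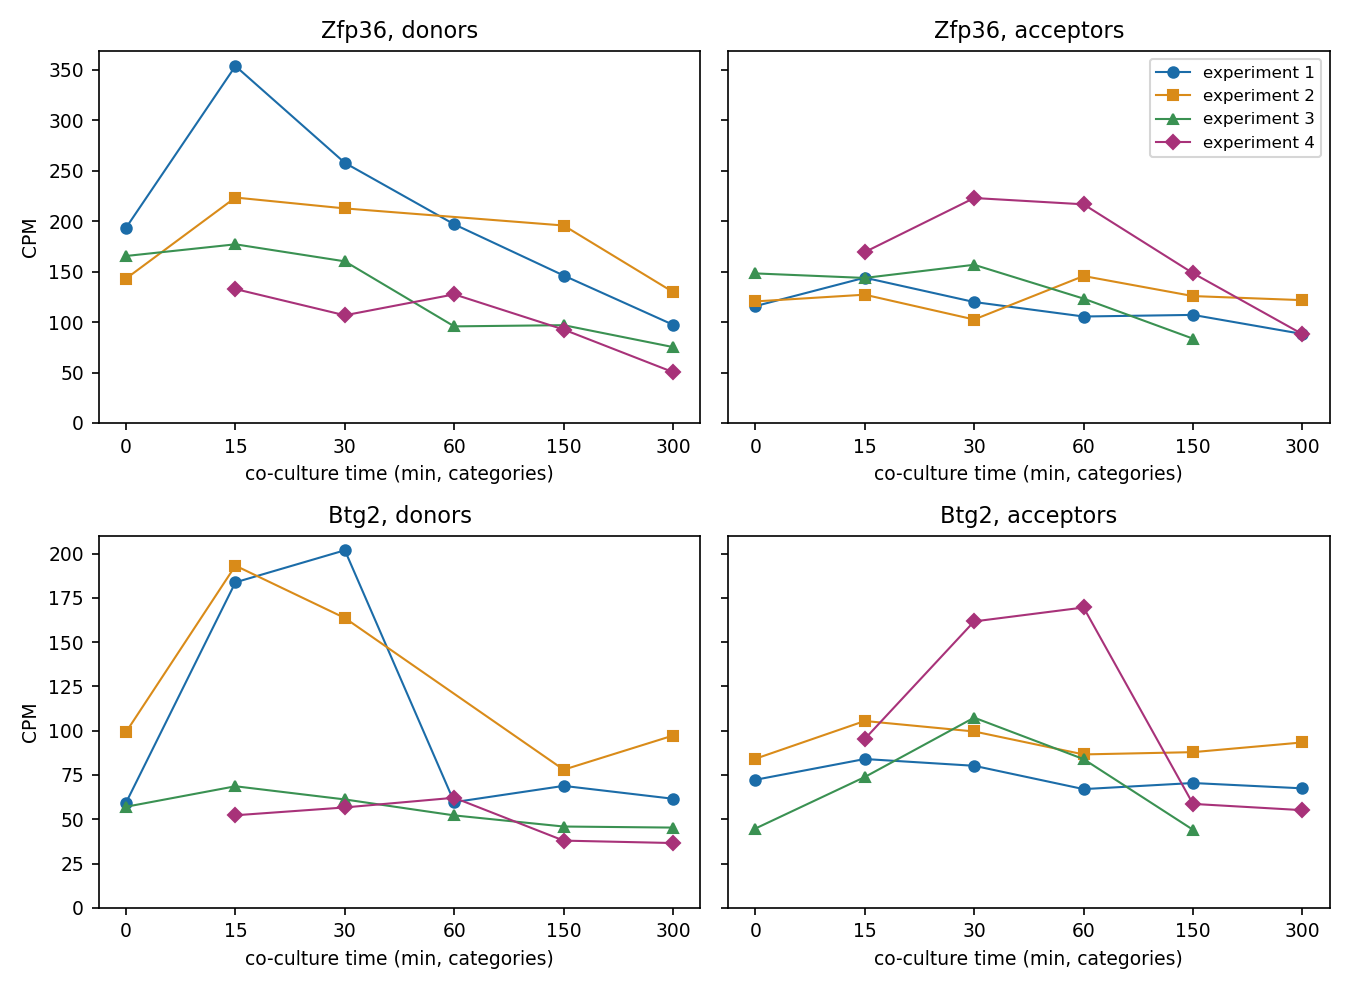
Zfp36 and Btg2 levels (CPM) in donors and acceptors against time of co-culture (categories, in min), 1 line per experiment. In donors of experiments 1 and 2 both genes peak at 15 or 30 min, while in acceptors the highest Btg2 value is that of experiment 4 at 60 min (169.5 CPM).

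Set against aSyn-only cells, Zfp36 was higher in donors at 15 min by 0.91 on the log2 scale (unadjusted p = 0.00663) and at 30 min by 0.64 (0.0495), and neither passed the BH adjustment of edgeR's test (adjusted p = 1). Of the 48 such tests of the 8 genes other than Nanos1, none was called without or with the block; 4 and 8 had an unadjusted p under 0.05. Among all genes 0% were called at 0 to 150 min, and 0.0304% at 300 min or 0.304% with the block. Zc3h12a at 300 min (-0.62 on the log2 scale, adjusted p = 0.0368) was called only with the block and without experiment 4. Between donors and acceptors, Zfp36 was higher in donors in 15 of 21 pairs, and its mean log2 difference by experiment was 0.77, 0.57, 0.07 and -0.73. The sign thus differed between experiments 1 to 3 and experiment 4. At 15 min it was called with the block without experiment 4 (0.85 on the log2 scale, adjusted p = 0.0301) and not with all 4 experiments (0.55, 95% interval -0.04 to 1.14).

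Zfp36l1 (chr12:80107754-80113013, minus strand) and Zfp36l2 (chr17:84183931-84187947, minus strand) encode further TTP-family proteins. Zfp36l1 read 311.4, 450.2, 235.8 and 234.3 CPM in untreated and 294.6, 271.1, 100.6 and 183.7 CPM in aSyn-only cells. It was lower with aSyn in all 4 experiments, by 0.08 to 1.23 on the log2 scale, with overlapping ranges. Its group means elsewhere ran from 162 to 293 CPM in donors and from 191 to 284 CPM in acceptors. Experiment accounted for 58.7% of its variance in log2 CPM and group for 17.5%. Zfp36l2 read 311.3, 427.4, 196.6 and 265.5 CPM in untreated and 448.2, 335.4, 324.2 and 177.6 CPM in aSyn-only cells. Its donor minus acceptor difference by experiment was 0.08, -0.08, 0.11 and -1.21 on the log2 scale, so that experiment 4 alone stood apart. Neither gene was called between donors and acceptors at any time; at 15 min the 95% interval without the block was -0.87 to 0.64 for Zfp36l1 and -0.66 to 0.49 for Zfp36l2. Zfp36, Zfp36l1 and Zfp36l2 overlap annotated genes on the opposite strand (Gm44710, Gm26669 and AC132455.1), and whether counting used the strand is not given in the sources used here.

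Zc3h12a, which encodes Regnase-1, was higher in the cells given aSyn and, in fits with the experiment block, rose in acceptors over untreated cells from 30 to 150 min. It lies on chr4:125118423-125127840 (minus strand) and had 68 to 434 reads per replicate. Untreated cells read 7.47, 9.81, 10.97 and 7.95 CPM (9.05 ± 1.63), and aSyn-only cells 17.5, 18.05, 19.2 and 26.8 CPM (20.4 ± 4.32). The groups did not overlap, and the ratios were 2.35, 1.84, 1.75 and 3.37. Donors read 18.4, 20.7 and 23.5 CPM at 0 min (experiments 1 to 3), 19.5, 21.1, 21.9 and 30.7 CPM at 15 min, and 10.5, 10.5, 15.5 and 24.5 CPM at 300 min. Acceptors read 9.86, 8.77, 12.6 and 15.4 CPM at 15 min, and 15.5, 14.6, 21.6 and 30.7 CPM at 150 min. At 60 min the acceptors were spread widely, at 11.3, 8.51, 20.6 and 24.3 CPM. Donors thus lay above all acceptors at 15 min, and by 150 min the ranges overlapped, with donors at 13.3, 14.9, 17.5 and 31.7 CPM.

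Zc3h12a was higher in donors in 19 of 21 pairs, with a mean log2 difference of 0.58, 0.72, 0.44 and 0.41 in experiments 1 to 4 (mean 0.54, SD 0.14, n = 4 experiments). Without the block the log2 difference was 0.88 at 0 min (adjusted p = 0.533), 1.00 at 15 min (0.156), 0.71 at 30 min (0.371) and 0.67 at 60 min (0.530) by edgeR, and none was called. With the block Zc3h12a rose in donors at 0 min (0.89, adjusted p = 0.00707), 15 min (1.01, 0.000207), 30 min (0.73, 0.00497) and 60 min (0.62, 0.0389). At 150 min the blocked difference was -0.10 (95% interval -0.44 to 0.24) and at 300 min 0.22 (-0.16 to 0.60). The calls at 15 and 30 min held without any 1 experiment. The call at 0 min was lost without experiment 1 (adjusted p = 0.0894), 2 (0.0968) or 3 (0.124), and that at 60 min without experiment 1 (0.218), 2 (0.159) or 3 (0.0743). Without experiment 4, Zc3h12a was called with no block too, at 0 min (0.89, adjusted p = 0.0342) and 15 min (1.01, 0.0188).

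In acceptors against untreated cells, Zc3h12a was called with the block at 30 min (0.70 on the log2 scale, adjusted p = 0.0215), 60 min (0.73, 0.0136) and 150 min (1.10, 0.000194). The 150 min call held without any 1 experiment, with adjusted p from 0.000536 to 0.0104. The call at 30 min was lost without experiment 1 (0.154) or 3 (0.189), and the one at 60 min without experiment 1 (0.101), 3 (0.173) or 4 (0.0942). Without the block none of the 48 tests of 8 genes in this family was called by edgeR. An unadjusted p under 0.05 was found in 10 of them. Of all 13169 genes, 749, 839, 966, 1004, 1082 and 721 had such a p at 0, 15, 30, 60, 150 and 300 min. DESeq2 called 1 of the 48, Zc3h12a at 150 min, where it called 1.13% of all genes. The shares of all genes called were 0, 0, 0.114, 0.0683, 0.137 and 0% at 0 to 300 min. With the block they were 0.995, 2.25, 3.6, 4, 4.78 and 0.623%, and 7 of 48 tests were called, 3 for Zc3h12a and 4 for Btg1.

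**Figure D4:**
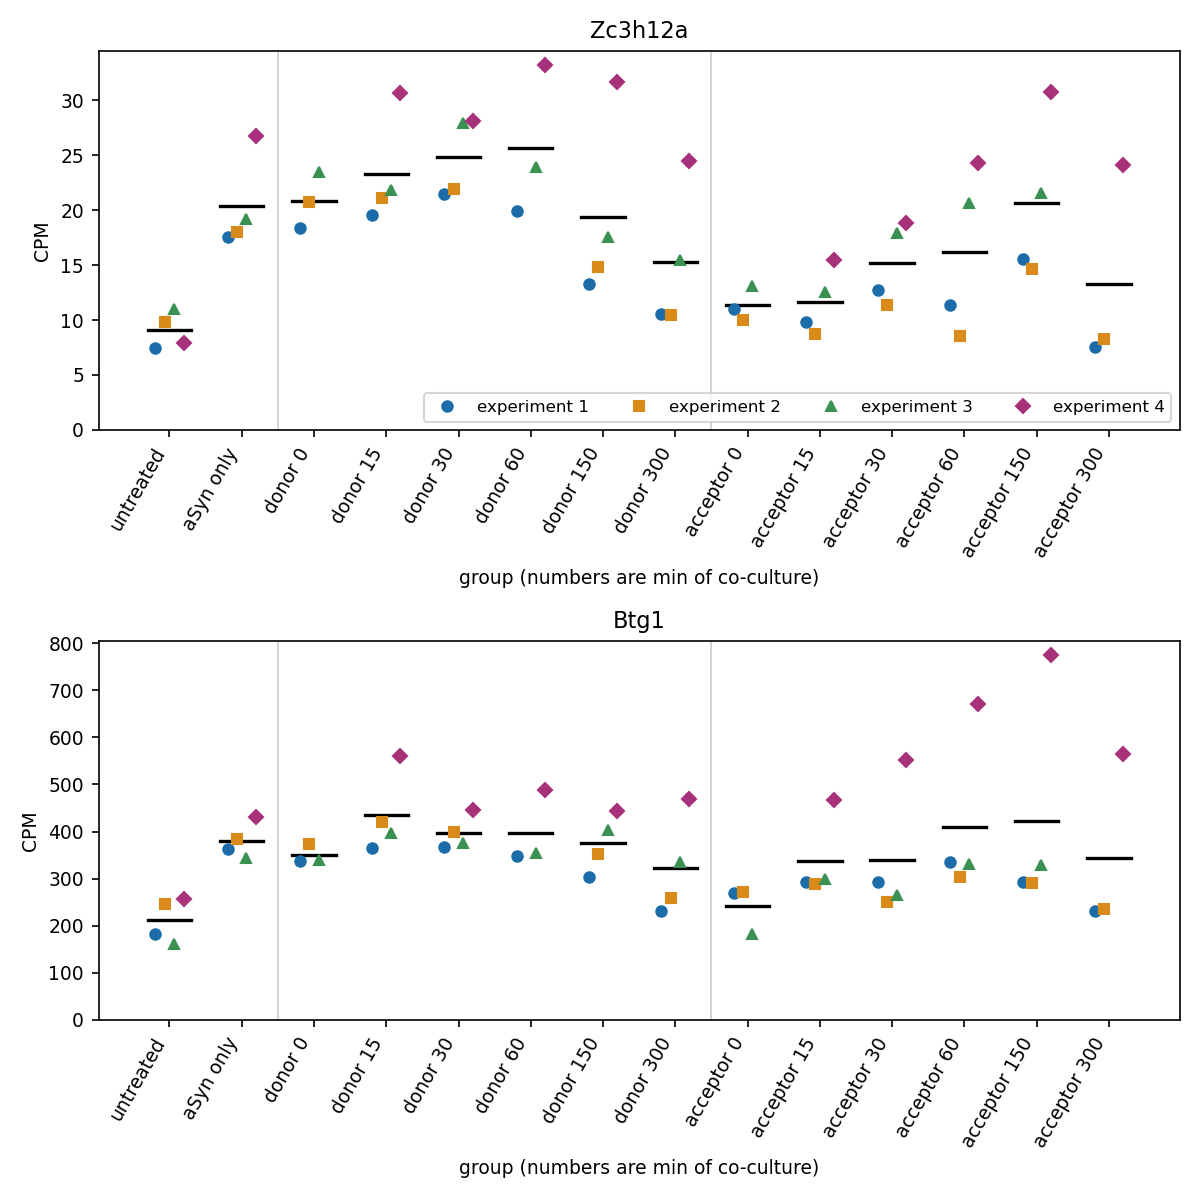
Zc3h12a and Btg1 levels (CPM) in each of the 14 groups; points are replicates coloured by experiment and bars are group means. aSyn-only values lie above all untreated values in both panels, and the Btg1 acceptors of experiment 4 (467.5 to 775.1 CPM from 15 to 150 min) lie far above those of experiments 1 to 3.

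Btg1, an antiproliferative adaptor that binds CAF1 deadenylases, followed Zc3h12a most closely among the 9 genes (Pearson r 0.76 over 52 replicates, adjusted for experiment, as a description). It lies on chr10:96617006-96622809 (plus strand). Untreated cells read 181.9, 245.9, 162.0 and 256.7 CPM (211.6 ± 46.7), and aSyn-only cells 362.9, 383.3, 344.1 and 431.8 CPM (380.5 ± 37.7). The ranges did not overlap, and aSyn-only cells were higher by 1.56- to 2.12-fold. Acceptors read 269.4, 271.4 and 181.8 CPM at 0 min and 292.6, 291.5, 328.1 and 775.1 CPM at 150 min. In experiments 1 to 3 the 150 min level was 1.09, 1.07 and 1.80 times that at 0 min. With the block Btg1 rose in acceptors over untreated cells at 15 min (0.64 on the log2 scale, adjusted p = 0.0264), 30 min (0.62, 0.0263), 60 min (0.89, 0.00129) and 150 min (0.89, 0.000935). The 60 and 150 min calls held without any 1 experiment. At 15 min the call was lost without experiment 1 (adjusted p = 0.187) or 3 (0.193), and at 30 min without experiment 1 (0.174) or 3 (0.193). Without experiment 4, whose acceptors were far higher, the blocked difference was 0.57, 0.46, 0.72 and 0.63 at these 4 times and called at each.

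Between donors and acceptors Btg1 was higher in donors in 16 of 21 pairs, with mean log2 differences of 0.18, 0.42, 0.44 and -0.32 by experiment. It was not called at any time with all experiments. Without experiment 4 it was called at 0 min, at 0.55 on the log2 scale (adjusted p = 0.0408, or 0.00755 with the block), and with the block also at 15 min (0.44, 0.0438) and 30 min (0.50, 0.0172).

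Btg2, an immediate early gene and p53 target of the same family, was the fifth of the genes most like Zfp36. It lies on chr1:134075170-134079120 (minus strand). Untreated cells read 50.3, 105.4, 54.2 and 39.5 CPM and aSyn-only cells 67.1, 91.5, 51.3 and 51.5 CPM, with overlapping ranges. Donors read 59.3, 99.2 and 57.1 CPM at 0 min, 183.7, 193.1, 68.6 and 52.2 CPM at 15 min, 201.8, 163.6, 61.2 and 56.7 CPM at 30 min, and 59.7, 52.2 and 62.1 CPM at 60 min (experiments 1, 3 and 4). The 15 min level was 3.10, 1.95 and 1.20 times that at 0 min in experiments 1, 2 and 3. The high values came from experiments 1 and 2, and the donors of experiments 3 and 4 lay near their level at other times. In acceptors experiment 3 stood higher at 15, 30 and 60 min (1.65, 2.40 and 1.88 times 0 min) and experiment 4 read 161.7 and 169.5 CPM at 30 and 60 min. The donor minus acceptor difference was 0.31, 0.34, -0.24 and -1.01 by experiment on the log2 scale, with donors lower in 13 of 21 pairs. Against aSyn-only cells the difference was 0.93 at 15 min (unadjusted p = 0.0219) and 0.89 at 30 min (0.0283) on the log2 scale, and neither passed the adjustment.

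The promoter of Btg2 is printed because it was the one among the 8 of these genes with a promoter entry to hold a cyclic AMP response element, TGACGTCA, in capitals below, a site type known from immediate early genes. It is the 250 bases before the RefSeq start on GRCm38.p6.
Btg2 promoter, chr1:134079156-134079405, minus strand: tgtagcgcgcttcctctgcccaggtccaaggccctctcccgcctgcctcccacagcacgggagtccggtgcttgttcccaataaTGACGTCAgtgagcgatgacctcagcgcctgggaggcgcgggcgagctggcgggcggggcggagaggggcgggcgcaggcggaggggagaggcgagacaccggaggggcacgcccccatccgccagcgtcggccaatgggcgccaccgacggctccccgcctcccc
The element begins 166 bases before the start. The window searched in each promoter held such 250 bases and also a short stretch past the start. In that window the element occurs, on either strand, in 1.79% of 32851 RefSeq promoters. An AP-1 site (TGACTCA, 5.20% of promoters), one form of the serum response element (0.0639%) and one form of the kappaB site (0.155%), searched on both strands of the same window, matched in none of the 8. Zfp36l2 had no entry.

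The genes most like Zfp36 were Junb, Fos, Osm, Nr4a1 and Btg2, with Pearson r of 0.881, 0.830, 0.813, 0.773 and 0.752 over the 52 replicates. Junb and Fos encode AP-1 subunits, Osm a cytokine of the interleukin-6 family and Nr4a1 an orphan nuclear receptor. Junb averaged 419 CPM in donors at 15 min and 187 CPM at 300 min, and Fos 388 and 134 CPM. In the same donors Zfp36 averaged 221.7 ± 95.5 and 88.2 ± 33.7 CPM (SD, n = 4). Nr4a1 averaged 31.0 and 3.63 CPM. These are levels of each gene at both times and do not compare genes with each other.

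Tob1 and Tob2, larger proteins of the BTG family that bridge CAF1 and poly(A)-binding protein, were called between donors and acceptors neither without nor with the block. Tob1 (chr11:94211454-94215495, plus strand) had 14 to 91 reads per replicate and 1.21 to 7.68 CPM, so that small differences could not be seen at this depth. It read 3.53, 3.71, 2.40 and 3.43 CPM in untreated and 2.58, 4.41, 5.64 and 4.36 CPM in aSyn-only cells, with overlap. Tob2 (chr15:81848272-81858796, minus strand, overlapping Gm49476 on the other strand) read 42.7, 41.9, 30.8 and 53.2 CPM in untreated and 42.8, 33.1, 27.0 and 44.7 CPM in aSyn-only cells, also with overlap. At 15 min the donor minus acceptor difference was between -0.26 and 1.19 for Tob1 and between -0.47 and 0.72 for Tob2 (95% intervals, log2 scale, no block). Experiment accounted for 59.6% of the variance of Tob2 and group for 16.2%.

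Across the 9 genes, aSyn-only cells differed from untreated cells without overlap in Nanos1 (lower) and in Zc3h12a and Btg1 (higher), and for the other 6 genes the ranges overlapped. The share of all genes without overlap is not given here, so nothing is read from how many of the 9 did not overlap. In this contrast, on which Nanos1 was selected, 2.5% of all genes were called without and 19.2% with the block, and 2 and 3 of the 9, from which nothing is read. Of the variance in log2 CPM over 52 replicates, group accounted for 63.5% in Nanos1, 54.4% in Zc3h12a and 41.8% in Zfp36. Nanos1 and Zc3h12a moved in opposite directions over the replicates (r -0.66).

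The wider decay pathway was read from 8 lists drawn up with earlier results of these data known. With no block, none of their genes was called by edgeR between donors and acceptors, and DESeq2 called 4 times in the list of TTP and Regnase-1 target transcripts and once in the microRNA list. At 15 min 11 of the 25 target transcripts tested had an unadjusted p under 0.05 in edgeR's test, as had 1513 of all 13169 genes. The median log2 difference of the targets, mainly cytokines and chemokines, was 1.15 at 0 and 15 min and 1.01 at 30 min, then 0.72, 0.34 and 0.20 at 60, 150 and 300 min. The median over all genes at 15 min was -0.03. Since the list was drawn up with earlier results known, these medians are a description and no test of a shift. In the contrast used for the choice, given only as a description, Cxcl3 averaged 14.0 ± 11.3 CPM in aSyn-only and 0.397 ± 0.341 CPM in untreated cells, and the RNA-binding gene Celf2 315 ± 41.6 and 520 ± 113 CPM.

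With the block 9 of the 25 targets rose in donors at 0 min, 11 at 15 min and 11 at 30 min. Then 6, 3 and 2 rose at 60, 150 and 300 min, and 1, Ccl4, fell at 15 and 30 min. Of all genes, 4.28, 9.57, 10.8, 6.7, 5.19 and 1.38% were called at these times, in either direction. At 15 min the neutrophil chemokine gene Cxcl3 read 25.8 ± 37.7 CPM in donors and 1.10 ± 1.56 CPM in acceptors (4.36 on the log2 scale, adjusted p = 3.44e-05). Il1a read 35.8 ± 68.1 against 2.25 ± 4.36 CPM (3.90, adjusted p = 0.000506), and Il1b 795 ± 1065 against 110 ± 102 CPM (2.44, 0.00503), with SDs near or above the means. Il6 read 5.14 ± 10.0 against 0.129 ± 0.259 CPM (5.20, 0.000290). One experiment carried these donor means: in experiment 4 Il1a read 138, Il6 20.1, Il1b 2390 and Cxcl3 82.4 CPM, and without it the donor means were 1.72, 0.141, 263.6 and 6.90 CPM. Without experiment 4 the blocked calls of Cxcl3, Il1a and Il1b at 15 min held (adjusted p = 1.25e-05, 0.00721 and 0.0017), and Il6 had too few reads to be tested. Ccl4 read 191 ± 90.9 against 370 ± 95.3 CPM (-1.05, 0.0161), a call lost without experiment 2 (adjusted p = 0.0686) or 3 (0.0881). This list had 44 blocked calls in 150 tests over 6 times (29.3%, against 6.31% for all genes). They became 22 without experiment 1, 23 without experiment 2, 32 without experiment 3 and 39 without experiment 4. The list was drawn up with earlier results known and the same genes recur at each time, so its share is a description and no test.

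The enzymes that carry out decay had few calls, and the same genes recur at each time, so nothing is read from their shares. Over the 6 donor and acceptor comparisons with the block, 6.31% of the tests of all genes were called. The 19 deadenylase genes had 5 calls in 114 tests (4.39%), the 20 genes of decapping and 5′ decay 3 in 120 (2.5%), the 18 exosome genes 2 in 108 (1.85%), the 14 genes of nonsense-mediated decay 1 in 84 (1.19%) and the 13 of microRNA silencing 3 in 78 (3.85%). Without experiment 1, 2 or 3 the deadenylase calls were 0, 1 and 0, and the decapping calls 0, 0 and 1. The 26 other sequence-specific factors had 12 calls in 156 tests (7.69%), and 4, 5, 6 and 9 without experiment 1, 2, 3 or 4. N4bp1, an endonuclease related to Regnase-1, rose in donors at 0, 15, 30 and 60 min; at 15 min it read 96.2 ± 35.0 against 47.6 ± 7.34 CPM (0.95, adjusted p = 0.00295). Its calls at 15 and 30 min held without any 1 experiment, the one at 0 min was lost without experiment 1, 2 or 3 (adjusted p = 0.122, 0.205 and 0.444), and the one at 60 min without experiment 3 (0.0833). Arid5a, which encodes a protein that stabilises Il6 messages, was higher in donors at 15 min (1.34, adjusted p = 0.0406), while Cpeb1, a cytoplasmic polyadenylation factor (-0.99, 0.0251), and Rc3h2, which encodes Roquin-2 (-0.51, 0.0361), were lower. Of the 4 fits that leave out 1 experiment, 1 kept the call of Arid5a (without experiment 4), 1 that of Cpeb1 (without experiment 3) and 0 that of Rc3h2 (adjusted p from 0.0542 to 0.161).

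The list of kinases, phosphatases and 14-3-3 proteins that act on TTP held 11 genes. With the block there were 14 calls in 66 tests (21.2%, against 6.31% for all genes). Without experiment 1, 2, 3 or 4 there were 5, 5, 5 and 10. This list too was drawn up with earlier results known, and the same genes recur at each time, so nothing is read from its share. Map2k3, a kinase upstream of p38, rose in donors at 0 min (0.99, adjusted p = 0.00068), a call that held without any 1 experiment, and at 15 min (0.54, 0.0228), where it was lost without experiment 2 (0.106) or 3 (0.14). Ppp2ca, the catalytic subunit of the phosphatase PP2A, rose at 15 min (0.42, 0.00362), which held without any 1 experiment, and Ywhaq, a 14-3-3 protein, fell (-0.27, 0.0161), which was lost without experiment 1 (0.127), 3 (0.0846) or 4 (0.0954). Dusp1, a p38 phosphatase gene whose transcript is also a TTP target, read 380 ± 73.7 CPM in donors and 172 ± 24.1 CPM in acceptors at 0 min (1.16 with the block, adjusted p = 0.0119, lost without experiment 1 at 0.182 or 3 at 0.217). It was the list gene called without the block outside the aSyn contrast: in acceptors at 30 min against untreated cells (410 ± 214 against 128 ± 69.4 CPM, 1.67, adjusted p = 0.0212) and over the donor times (adjusted p = 0.0472). The first call was lost without experiment 1 (adjusted p = 0.598), 3 (0.35) or 4 (0.0839), and with only those groups in the fit, where no gene was called. The second was lost without experiment 1 (1), 2 (1) or 3 (0.519).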

How the data were processed

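QuantSeq 3′ libraries of 54 samples were analysed. The authors aligned reads with STAR to mm10 and used Partek and DESeq2, per the submitters' processing notes; versions and strand use are not given in the sources used here. The deposited table holds whole-number read counts per gene, and all numbers come from it. The deposited normalized signal table equals these counts divided by size factors and was used only for that check.

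Same-numbered untreated libraries (experiments 2 and 4) were summed. They differed more than sampling noise allows but less than other pairs (chi-square per degree of freedom 10.3 and 12.1, against 24.2 or more, over genes with 20 or more reads in the pair). Tests used R 4.3.3 with edgeR 4.0.16 (TMM scaling, filterByExpr with a minimum count of 10, quasi-likelihood F test over all 14 groups, BH over 13169 genes, threshold 0.05, no block). The fits were also run on simulated counts with the spread of the blocked fit and a donor change that was the same in every experiment. Differences that vary between experiments, as for Nanos1, were not simulated, so nothing is read from that run. There were 19 pairwise comparisons and 3 F tests over times. The replicate number was also fitted as a block. The numbers come from the labels, and every same-numbered pair of libraries deviated together from the group means (r of at least 0.199; means 0.339 to 0.593). The biological coefficient of variation was 38.1% without and 21.0% with the block. In all, 8 other settings were tried, among them the test of DESeq2 1.42.0; leaving out each experiment with the block was added after the blocked calls were seen. Likeness used log2 CPM with a prior count of 2, less the experiment means.

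The 9 genes and all lists were chosen with earlier results of these data known. Named genes are the 9 members, at most 4 called genes of each list and comparison with the largest changes, and the 5 genes most like Nanos1 and Zfp36; Ccl4 was named after its values were seen. Proteins are not printed, and 1 sequence match is not reported here. Intervals cover 95%.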

Additional observations from a re-analysis of the deposited data

Results flagged for a closer look

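Of 90 sets of 4 replicates (9 genes in the groups with 4 experiments), 6 held a value far from the other 3 by Dixon's criterion, which chance gives in about 1 of 20 sets. Btg1 accounted for 4 of them, each the acceptors of experiment 4: 467.5 CPM at 15 min against 287.7 to 298.7 CPM in the others, 552.4 CPM at 30 min against 250.05 to 293.1 CPM, 671.5 CPM at 60 min against 303.6 to 334.4 CPM, and 775.1 CPM at 150 min against 291.5 to 328.1 CPM. Tob2 in acceptors of experiment 4 at 60 min read 84.4 CPM against 29.5 to 33.0 CPM. Tob2 in donors of experiment 3 at 30 min was low, at 31.1 CPM against 44.8 to 47.5 CPM. The library numbers of experiment 4 also stood apart, so any library batch, which the labels do not name, cannot be told apart from experiment.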

How the results depend on the processing

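Counts are of tests of these genes called at an adjusted p of 0.05. The replicate block moved the count from 0 of 48 to 7 for acceptors against untreated cells and from 0 of 54 to 8 for donors against acceptors; for untreated against aSyn-only cells it gave 3 of 9 in place of 2. DESeq2 called 1 in each of the first 2 families. Keeping the 6 untreated libraries separate called 1 of 48, and fitting only the groups compared called 0 of 9 for aSyn-only cells. With the block and without experiment 1, 2, 3 or 4, acceptors against untreated cells had 3, 7, 3 and 6 calls and donors against acceptors 5, 5, 4 and 13; over all genes 0.754, 1.64, 0.555 and 2.57% of the tests in the first family and 2.95, 2.8, 3.21 and 5.87% in the second were called. Without experiment 1 and with the block, 4 of 9 were called for aSyn-only cells; without experiment 4 and with the block, donors against aSyn-only cells had 1 call and the donor time course 3. Leaving out 1 experiment with no block gave 0 to 3 calls for aSyn-only cells and 0 to 3 for donors against acceptors. Of the 26 results for single genes that were recomputed under every setting (Nanos1 and Zc3h12a in donors against acceptors, Btg1 and Zc3h12a in acceptors, Zfp36 and Btg2 in donors), none with a direction changed it. Other scaling (DESeq2 size factors) and no filter on low counts changed none of these 26 calls. Tob1, with 14 to 91 reads, was limited most by depth. The cause of these shifts was not tested.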
